A study of Mus musculus with 39 samples.

Results

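The major urinary proteins described here are those of the genes Mup1 to Mup5, and their members were found by the RefSeq accession that the array files give for each non-control probe. Mup1, Mup3, Mup4 and Mup5 had 1 probe each and Mup2 had 0, so that 4 of 41174 probes, and 4 of the 5 genes, could be followed. Livers came from singly housed male C57BL/6J mice (spelled C57BL6/J in the labels), bought at 5 to 6 weeks of age. Aggressor-exposed (AggE) mice had spent daily 6-h sessions in a mesh cage inside the home cage of an SJL aggressor, with 3 short contacts per session. Control (Ctrl) mice had the same sessions, also without food, in a clean cage with no aggressor. The 39 mice, labelled as biological replicates, formed 8 groups: 4 Ctrl and 5 AggE at 24 hrs post-5-day, 4 and 5 at 24 hrs post-10-day, 4 and 5 at 1.5 wks post-5-day, and 6 and 6 at 4 wks post-10-day. An hour before the liver was taken, mice were put behind a partition in an aggressor's cage as a reminder of the exposure, and the methods do not say whether Ctrl mice were left out of it. Some labels disagree on the regimen. The description of the 5 AggE livers of the first time point speaks of a 1-day exposure, and titles at 1.5 wks, those of every AggE liver and of a single Ctrl liver (Ctrl mouse 4), carry a 10, while the group names used here follow the source field.

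Major urinary proteins (Mups) are lipocalins, small secreted carriers with a barrel-shaped pocket. The liver of adult male mice makes them in very large amounts and releases them into the blood, from which they pass into the urine, bind volatile pheromones and serve as scent signals in male contests and mate choice. Their liver transcription depends on the pulsed growth hormone of males acting through STAT5B, and on androgen, thyroid hormone and glucocorticoid, and circulating MUP1 has been tied to glucose and lipid metabolism. Mup4 and Mup5 are known best from lacrimal, nasal and salivary glands, and Mup3 from liver.

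The genes form 1 cluster on mouse chromosome 4. RefSeq lists 22 protein-coding Mup genes there, of which 5 had a probe: the 4 members and Mup6. Along the chromosome the listed genes come in the order Mup4, Mup2, Mup1, Mup5 and Mup3, with other Mup genes between them. The coding sequences of the family are known to be closely alike, so cross-hybridization between the members is likely, but probe sequences were not used here and it was not measured. Each value below is therefore that of a probe designed for the named gene, and the 4 probes are not 4 independent measurements.

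The stretches just before the start sites are given for the 3 listed genes that the RefSeq promoter table (build GRCm38.p6) held, 1 of which (Mup2) had no probe. The longest runs that pairs of them share are 17 to 26 bases, which does not measure how alike the transcripts are. Each stretch is the 120 bases upstream of the start, 5′ to 3′ on the minus strand, of chr4:60139857-60139976 for Mup2, chr4:62087318-62087437 for Mup3 and chr4:59960668-59960787 for Mup4. Capitals mark the longest run that all 3 share, and the letters TATATAA.
Mup2: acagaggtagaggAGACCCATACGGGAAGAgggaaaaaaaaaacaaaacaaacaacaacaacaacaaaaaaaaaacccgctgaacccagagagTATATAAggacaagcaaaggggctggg
Mup3: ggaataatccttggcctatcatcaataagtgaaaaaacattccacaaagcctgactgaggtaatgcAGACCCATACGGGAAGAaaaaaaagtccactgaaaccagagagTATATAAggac
Mup4: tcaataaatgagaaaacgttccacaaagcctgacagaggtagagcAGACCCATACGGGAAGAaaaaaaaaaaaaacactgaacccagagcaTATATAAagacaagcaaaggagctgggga

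The shared run, AGACCCATACGGGAAGA, is 17 bases long and began 107 bases before the annotated start of Mup2, 54 before that of Mup3 and 75 before that of Mup4. Searched on both strands in the 250 bases before every start site, it was found in 10 of 32851 promoters (0.0304%), and all 10 were Mup genes, of 14 Mup promoters in the table. The run was taken from Mup2, Mup3 and Mup4, so their place among the 10 was fixed in advance. The letters TATATAA, as in a TATA box, stood 27, 11 and 29 bases before the starts of Mup2, Mup3 and Mup4. They were found in 11 of the 14 Mup promoters and in 3.04% of all promoters. The letters TTCNNNGAA, the form of sequence that STAT5 proteins bind, were in 0 of the 14 and in 7.02% of all promoters, which says only that they are not in this window.

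All 4 probes were among the brightest on every array. Liver RNA carried the dye Cy-5, and a universal mouse reference RNA, pooled from cell lines and the same for all arrays, carried Cy-3, with no dye swap. By Cy-5 intensity among all spots of an array, the Mup1 probe ranked between 2 and 33 over 38 arrays (median 13.5), Mup4 between 5 and 68 (median 33), Mup5 between 6 and 81 (median 33) and Mup3 between 10 and 124 (median 51). Each was well above background in Cy-5 on all 39 arrays, and 0 spots of the 4 were saturated. On the array of Ctrl mouse 3 at 24 hrs post-10-day, the Mup1 and the Mup4 spots were marked as outliers, the Mup4 spot with a Cy-5 intensity of 69, and both were left out, so that group has n = 3 for these genes. In the reference channel, Mup4 and Mup5 were each well above background on 38 arrays.

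The markers of liver were present throughout. All 9 hepatocyte markers with a probe, among them Alb, Apoa1, Hpx and Fgb, were well above background in Cy-5 on all 39 arrays, with median log2 ratios of liver to reference from 3.23 (Ttr) to 7.44 (Hpx). Of 10 markers of bile duct, pancreas, muscle, fat and red cells, Epcam and Cela1 were well above background on 1 array each, Krt7 on 2, Adipoq on 8 and Cpa1 on 10. The bile duct genes Krt19 and Sox9 were well above it on 27 arrays each, the muscle genes Acta1 and Myh4 on 27 and 22, with log2 ratios of up to 3.75 and 3.10, and Hba-a1, a globin of blood, on all 39. Between 15.2% and 70.4% of spots per array were well above background in Cy-5. In bulk liver, fewer hepatocytes and less Mup RNA per hepatocyte cannot be told apart.

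The level of each probe is its log2 ratio of liver to reference after normalization, and a ratio of 1 probe cannot be set against that of another. Mup1 had its highest group means at 1.5 wks post-5-day, 9.82 ± 0.22 (SD, n = 4) in Ctrl and 9.52 ± 0.15 (SD, n = 5) in AggE mice. At 4 wks post-10-day the Mup1 means were 9.24 ± 0.27 (SD, n = 6) and 8.89 ± 0.45 (SD, n = 6), and at 24 hrs post-5-day 8.60 ± 0.17 (SD, n = 4) and 8.64 ± 0.70 (SD, n = 5). The lowest Mup1 means were those at 24 hrs post-10-day, 8.08 ± 0.68 (SD, n = 3) in Ctrl and 7.65 ± 0.26 (SD, n = 5) in AggE mice. Mup1 thus spanned more between the 4 times than between Ctrl and AggE mice of any one time.

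Mup3 and Mup4 had their highest and lowest means at the same times. For Mup3 the means ran from 8.22 ± 0.16 (SD, n = 5) in AggE mice at 1.5 wks to 6.17 ± 0.63 (SD, n = 5) in AggE mice at 24 hrs post-10-day. For Mup4 they ran from 7.10 ± 0.71 (SD, n = 4) in Ctrl mice at 1.5 wks to 3.86 ± 0.58 (SD, n = 3) in Ctrl mice at 24 hrs post-10-day. Mup5 was also highest at 1.5 wks, 9.97 ± 0.27 (SD, n = 4) in Ctrl and 9.78 ± 0.32 (SD, n = 5) in AggE mice. Its 2 lowest means, 8.26 ± 0.73 (SD, n = 6) in AggE mice at 4 wks and 8.24 ± 0.57 (SD, n = 5) in AggE mice at 24 hrs post-10-day, differed by less than their spread. Between neighbours in the order of the 8 group means, 7 pairs for each gene, the ranges of single mice overlapped in all 7 pairs for Mup1, for Mup3, for Mup4 and for Mup5, and no test was made across times.

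**Figure D1:**
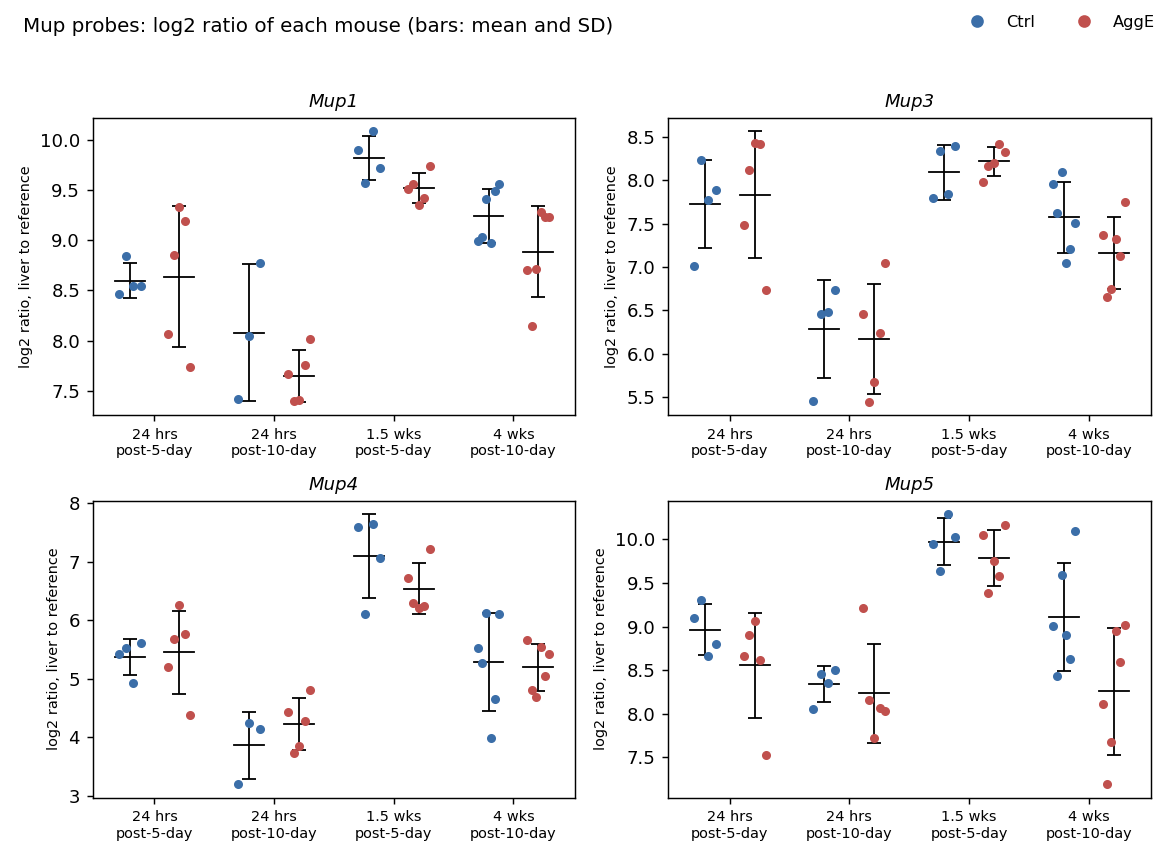
Log2 ratio of liver to reference for the Mup1, Mup3, Mup4 and Mup5 probes (vertical axes) in each mouse, by time point (horizontal axes), with Ctrl mice in blue, AggE mice in red and bars for the mean and SD. All 4 probes were highest at 1.5 wks post-5-day, and the Ctrl and AggE points overlap in every panel and time point.

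This order is that of the ratio. In the liver channel after normalization, 1.5 wks was the highest time for Mup5 alone. In Cy-5 intensity as scanned, all 4 probes were brightest at 4 wks: the medians of Mup1 were 158759 in Ctrl and 147649 in AggE mice there, against 25475 and 29160 at 1.5 wks. All 4-wk arrays were scanned on the second day and all 24-hr arrays on the first. At 1.5 wks the AggE array of the second day had a Mup1 intensity of 107125, against 8958 to 30731 on the first. After quantile normalization of the liver channel alone, the Mup1 means were 16.41 in both groups at 4 wks and 15.76 (Ctrl) and 15.67 (AggE) at 1.5 wks, on the log2 scale, and Mup3 and Mup4 were highest at 4 wks as well. Mup5 was highest at 1.5 wks there too, at 15.52 in Ctrl and 15.36 in AggE mice, against 15.18 and 15.17 at 4 wks. The reference channel moved too. The Mup4 spot, for one, had a median Cy-3 intensity of 9841 (n = 3) in Ctrl and 8917 in AggE mice at 24 hrs post-10-day, where its ratio was lowest, and of 2648 and 4386 at 1.5 wks, where its ratio was highest. Among the AggE mice of 24 hrs post-10-day it also differed by slide: mouse 5, alone on slide 3, had 2786, against 7545 to 13006 on slide 2. That mouse had the highest ratios of its group for Mup1, Mup3 and Mup4 (8.02, 7.04 and 4.82). Most slides held 1 time only, and 3 held arrays of 1.5 wks beside 24 hrs post-5-day or 4 wks. On these 3 slides the 1.5-wk arrays had the higher ratio for each of the 4 members, in 12 of 12 pairs of member and slide. For Mup1 they were 9.35 to 9.51 against 7.73 at 24 hrs on slide 6, 9.73 against at most 9.41 at 4 wks on slide 8, and 9.57 against 9.24 at 4 wks on slide 11. The pairs rest on few arrays, 3 against 1, 1 against 3 and 1 against 1 on these slides, and the 4 probes are not independent. The 24-hr array of slide 6, AggE mouse 5, was the lowest of its group for every member. The 1.5-wk array of slide 8 was Ctrl mouse 4, whose title carries a 10. In the liver channel alone the 1.5-wk mean was the higher in 6 of the 12 pairs. The arrays of 24 hrs post-10-day, where ratios were lowest, shared no slide with another time, so there time and slide cannot be told apart, and levels across times are given as a description.

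The question of each AggE against Ctrl comparison is whether aggressor exposure left the liver with more or less Mup RNA. By limma's moderated test over 25903 probes, with Benjamini-Hochberg adjustment, 0 of the 4 members were called at an adjusted p of 0.05 or less in any of the 4 comparisons, and 0 met the study's limits of 2-fold with an unadjusted p of 0.05 or less. Of the 16 unadjusted p-values, 1 (Mup5 at 4 wks) was at or under 0.05. The ranges of Ctrl and AggE mice overlapped for all 4 members in all 4 comparisons. Among all probes, 3.23% were called at 24 hrs post-5-day, 0.0734% at 24 hrs post-10-day, 0% at 1.5 wks (where 632 of 25903 had an unadjusted p of 0.05 or less) and 3.44% at 4 wks. The study's limits were met by 0.228%, 0.131%, 0.0309% and 0.235% of probes in the same order. Beside shares of this size, 0 of 4 is not a result about the Mups. The number of probes at the study's limits depended on the processing. It was 59, 34, 8 and 61 here and ran from 38 to 2203, 23 to 625, 1 to 787 and 40 to 783 over all alternatives. The study itself counted more genes at its limits in every comparison.

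At 24 hrs post-5-day the members did not move together: 3 of the 4 were higher in AggE mice by at most 0.11 on the log2 scale and 1 was lower, and in the liver channel alone all 4 were lower. Mup1, whose probe was the brightest of the 4 in the liver channel, was 8.46, 8.85, 8.54 and 8.54 in the Ctrl mice and 8.07, 8.85, 9.33, 9.20 and 7.73 in the AggE mice. The AggE mice spread to both sides of the Ctrl mice, and the difference was 0.04 (SE 0.26, adjusted p = 0.97, limma), a sign that turned in the liver channel alone (-0.53) and with other background and normalization settings. Mup5 was 9.09, 9.31, 8.66 and 8.80 in Ctrl and 8.67, 8.90, 9.07, 8.62 and 7.52 in AggE mice. Its difference was -0.41 (SE 0.33, adjusted p = 0.60, limma), and AggE mouse 5 was the lowest of the 9. Without that mouse it was -0.15, and its sign turned with the scanner's processed signals (0.74) and without background correction (0.11). Mup3 and Mup4 differed by 0.11 (SE 0.32) and 0.08 (SE 0.38), with 95% confidence intervals of -0.54 to 0.76 and -0.68 to 0.85.

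The liver channel gave another picture at this time. As scanned, the Mup5 spot lay between 15827 and 35126 in the 4 Ctrl mice and between 5506 and 15725 in the 5 AggE mice, on arrays of which 25.3% to 31% (Ctrl) and 15.7% to 28.2% (AggE) of spots were well above background. After quantile normalization of Cy-5 alone, Mup5 was 15.18, 14.57, 14.78 and 14.33 in Ctrl and 13.37, 13.77, 14.07, 13.21 and 13.93 in AggE mice, so that every AggE mouse was below every Ctrl mouse. The difference was -1.05 (SE 0.33, adjusted p = 0.058, limma), short of the threshold, whereas the ratio of processed signals gave 0.74. Mup1 showed the same in Cy-5, 15.42 to 15.80 in Ctrl against 14.78 to 15.26 in AggE mice, a difference of -0.53 (SE 0.18, adjusted p = 0.079, limma). Mup3 and Mup4 overlapped, with differences of -0.19 (SE 0.32) and -0.01 (SE 0.30). All AggE mice lay below all Ctrl mice for 5.65% of the 25860 probes measured on all 9 arrays, and 4.61% of 25903 probes were called in Cy-5 at this time. The Mup5 reference spot ran from 150 to 235 with Ctrl mice and from 116 to 271 with AggE mice. All Ctrl arrays of this time lay on 1 slide and all AggE arrays on 2 others, so slide and exposure cannot be told apart in either reading.

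At 24 hrs post-10-day, Mup1 was 7.42, 8.05 and 8.78 in the 3 Ctrl mice with a value, and 7.67, 7.40, 7.40, 7.76 and 8.02 in the AggE mice. The Ctrl range took in 3 of the 5 AggE mice and the other two lay just under it, and the difference was -0.43 (SE 0.28, 95% confidence interval -1.01 to 0.15, adjusted p = 1.00, limma). Without Ctrl mouse 4, which held the highest value, it was -0.08. Mup5 was 8.05, 8.45, 8.36 and 8.51 in Ctrl and 9.21, 8.15, 7.72, 8.07 and 8.04 in AggE mice, where AggE mouse 1 was the highest of the 9 and the difference -0.10 (SE 0.33). Mup3 differed by -0.11 (SE 0.32). Mup4 was the only member higher in AggE mice, by 0.36 (SE 0.41), but it was 0.029 without Ctrl mouse 1, 1.01 with the outlying spot of Ctrl mouse 3 kept and -0.23 in the liver channel alone. In that channel Mup1, Mup3 and Mup5 differed by -0.21, -0.24 and -0.44, so every member was lower in AggE mice there. At this time too the Ctrl and AggE arrays shared no slide.

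At 1.5 wks post-5-day, Mup1 was 9.90, 9.58, 10.09 and 9.73 in Ctrl and 9.51, 9.57, 9.35, 9.43 and 9.74 in AggE mice. Of the 5 AggE mice, 4 lay below the lowest Ctrl mouse, and the difference of -0.30 (SE 0.26) had an adjusted p of 1.00 by limma and an unadjusted p of 0.056 in the exact two-sided permutation test over the mice (0.48 after Benjamini-Hochberg adjustment over 16 such tests). Within slide 7, which held AggE mouse 5 and Ctrl mice 1 to 3, the Mup1 difference was -0.11, and within the scan days it was -0.35 (4 AggE and 3 Ctrl mice) and -0.16 (1 and 1). Mup4 differed by -0.56 (SE 0.38) and by 0.10 within that slide. Mup5, at 9.94, 9.63, 10.29 and 10.03 in Ctrl and 10.05, 9.38, 9.75, 9.58 and 10.17 in AggE mice, differed by -0.19 (SE 0.33), and by 0.21 within the slide. Mup3 was the only member higher in AggE mice by the ratio, at 0.13 (SE 0.32), while it was lower with processed signals (-0.79), with the deposited ratios (-0.72) and without background correction (-0.22), and Mup4 was higher in the liver channel alone (0.27). Without Ctrl mouse 4, whose title differs from those of the other Ctrl mice of that time, the differences were -0.34 for Mup1, 0.23 for Mup3, -0.58 for Mup4 and -0.17 for Mup5, and none was called. With all mice, the 95% confidence intervals of all 4 differences held 0.

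At 4 wks post-10-day all 4 members were lower in AggE mice by the ratio, but Mup1 and Mup4 were higher there without background correction or from the scanner's processed signals, Mup3 and Mup4 were higher with slide as a fixed block, and in the liver channel alone Mup1 had the same mean in both groups. Mup5 differed most. Its lowest, median and highest values were 8.44, 8.96 and 10.09 in the 6 Ctrl mice and 7.19, 8.35 and 9.02 in the 6 AggE mice. AggE mice 1, 2 and 3 lay below every Ctrl mouse, while the other three lay within the Ctrl range. The difference was -0.85 (SE 0.29, 95% confidence interval -1.44 to -0.27), or 1.81-fold lower in AggE mice, with an unadjusted p of 0.0056 and an adjusted p of 0.085 (limma), and the exact two-sided permutation test over the 12 mice gave p = 0.067.

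The Mup5 difference at 4 wks was not seen in the liver channel. Normalized Cy-5 alone gave means of 15.18 in Ctrl and 15.17 in AggE mice, a difference of -0.01 (SE 0.28, 95% confidence interval -0.58 to 0.56). As scanned, the median Cy-5 intensity of the spot was 60496 in Ctrl and 72055 in AggE mice, and the median Cy-3 intensity of the reference was 316 in Ctrl and 400 in AggE mice, with wide overlap between the groups in both channels. Without normalization between arrays the ratio difference was -1.57 (adjusted p = 0.021, limma), past the threshold. Without AggE mouse 6 it was -1.01 (adjusted p = 0.048), and without Ctrl mouse 2 it was -0.99 (adjusted p = 0.038), while the other 10 arrays left out in turn gave adjusted p-values above 0.05. On slide 9, which held AggE mouse 1 and Ctrl mice 4 to 6, AggE minus Ctrl was -1.09 for Mup5, with 1 AggE mouse and hence no spread of its own.

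The remaining members at 4 wks moved less. Mup1 had 8.97, 9.22 and 9.56 as its lowest, median and highest values in Ctrl and 8.15, 8.97 and 9.29 in AggE mice, a difference of -0.36 (SE 0.22, adjusted p = 0.39, limma). Because the Mup1 probe ranked 2 or 3 of all spots on every array of this time, quantile normalization of the liver channel left it almost no room to vary. Mup3 differed by -0.41 (SE 0.27, adjusted p = 0.42) and Mup4 by -0.09 (SE 0.32, adjusted p = 0.92). Within slide 9 the Mup3 and Mup4 differences were 0.11 and 0.73, opposite in sign to those over all 12 mice.

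**Figure D2:**
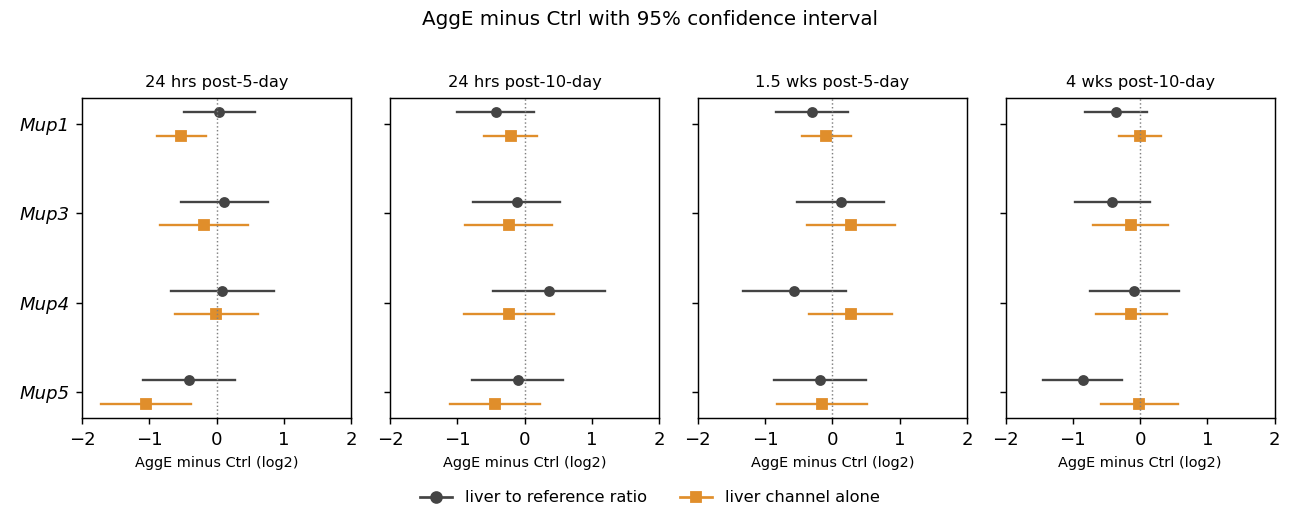
AggE minus Ctrl on the log2 scale (horizontal axes) with its 95% confidence interval for each member at the 4 time points, from the ratio of liver to reference (grey circles) and from the liver channel alone (orange squares). The Mup5 interval leaves out 0 in the ratio at 4 wks post-10-day and in the liver channel at 24 hrs post-5-day, where the Mup1 interval does too, and all others hold 0.

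**Figure D3:**
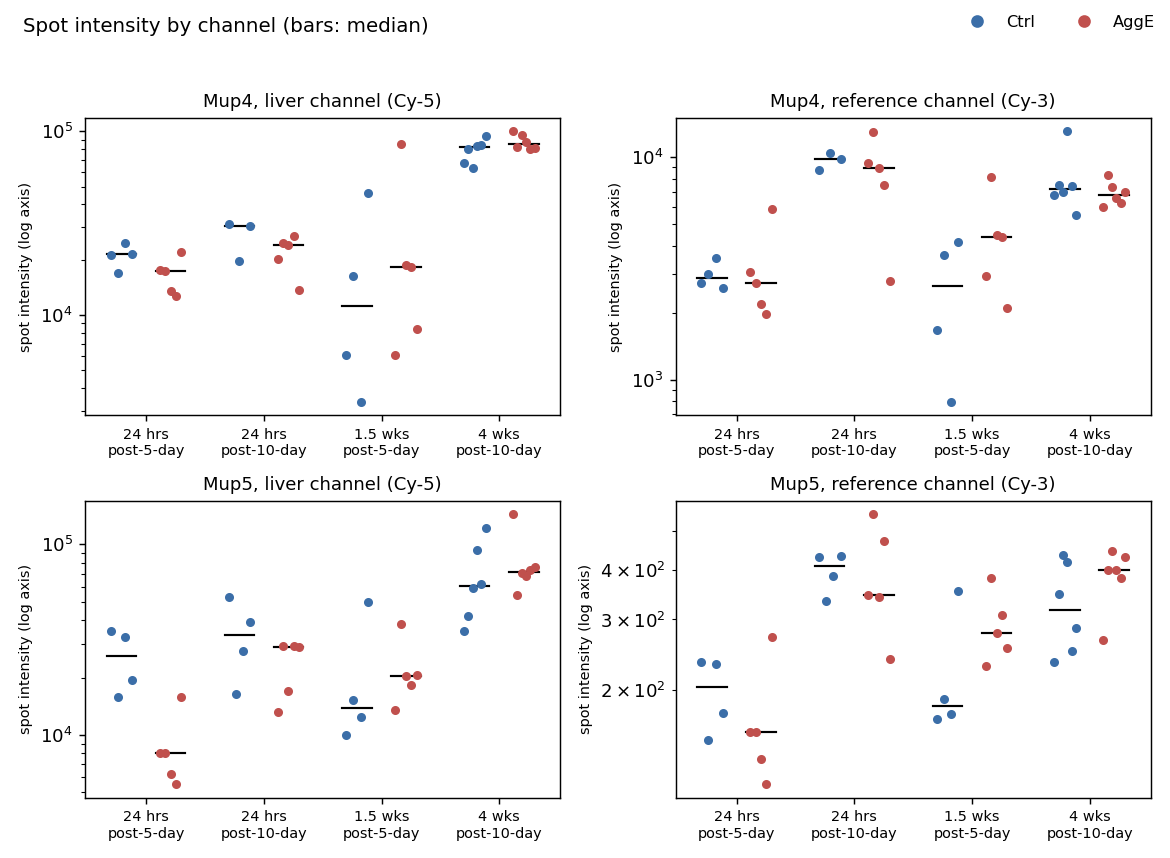
Spot intensity of the Mup4 and Mup5 probes on a log axis in the liver channel (left) and the reference channel (right), by time point, with Ctrl in blue, AggE in red and bars for the median. At 24 hrs post-5-day the Mup5 liver signal of the AggE mice, 5506 to 15725, lies below that of Ctrl mice, and the reference signal of both probes differs between time points.

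Whether a member's AggE minus Ctrl difference itself differed between comparisons was tested in the same fit. Of 12 such differences, 0 were called by limma and 0 had an unadjusted p of 0.05 or less. All probes gave 0.027% called for 24 hrs post-5-day minus 24 hrs post-10-day, 0.0734% for 24 hrs minus 1.5 wks post-5-day and 0.054% for 24 hrs minus 4 wks post-10-day. The member with the smallest p was Mup5, whose difference at 24 hrs post-10-day exceeded that at 4 wks by 0.75 (SE 0.44, 95% confidence interval -0.15 to 1.65, unadjusted p = 0.099, adjusted p = 0.65). Its value in the liver channel alone was -0.43. The Mup5 difference at 4 wks is therefore not shown to be particular to that time.

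The 4 probes rose and fell together from mouse to mouse. Over 38 or 39 arrays, Pearson's r between log2 ratios was 0.81 for Mup1 with Mup3, 0.84 for Mup1 with Mup4, 0.77 for Mup1 with Mup5, 0.83 for Mup3 with Mup4, 0.69 for Mup3 with Mup5 and 0.81 for Mup4 with Mup5. After each group's mean was subtracted, r lay between 0.48 (Mup3 with Mup5) and 0.70 (Mup1 with Mup3). These values are descriptions: the probes share each array's dye balance and normalization, stand near the top of the same intensity scale, and are likely to share transcripts.

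**Figure D4:**
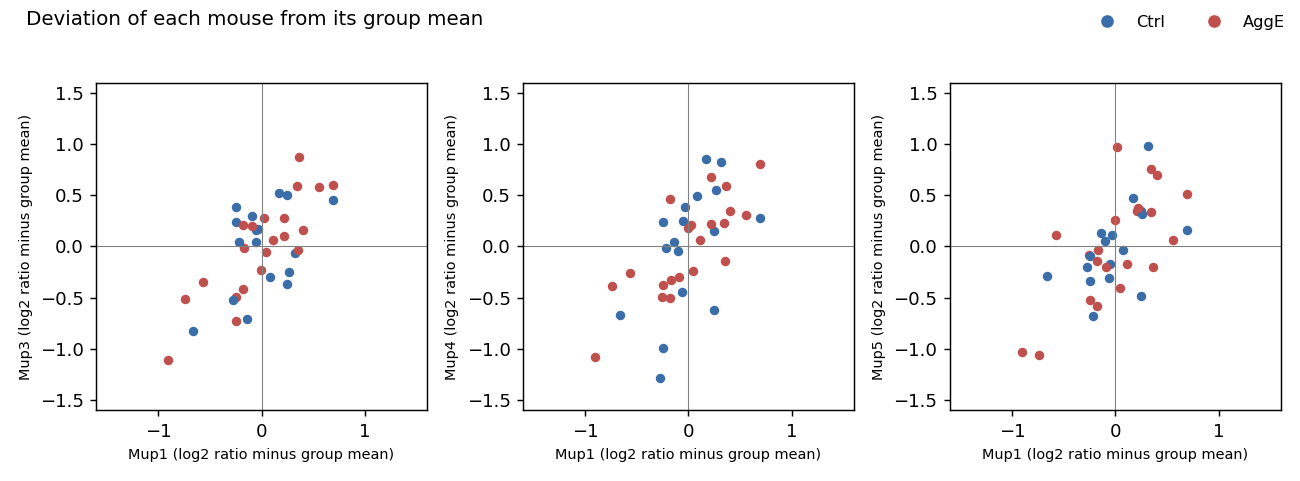
Deviation of each mouse from its group mean in log2 ratio, for Mup3, Mup4 and Mup5 (vertical axes) against Mup1 (horizontal axes), with Ctrl in blue and AggE in red. Each point is 1 mouse, and the clouds run from lower left to upper right, with r of 0.70, 0.66 and 0.65.

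Among 3939 probes of other genes that were well above background in Cy-5 on all 39 arrays, those most like Mup1, the member brightest in the liver channel, were Serpina1d (r = 0.91), Rdh7 (0.90), Apoc3 (0.89), an unnamed transcript model (0.87), Cyp2d10 (0.86), Hamp (0.84), Ahsg (0.84), F10 (0.84), Msrb1 (0.83) and Fetub (0.83). The median r over those probes was 0.08 and the 95th percentile 0.68, and the 10 were picked as the highest. With group means subtracted, the 10 values lay between 0.48 (Msrb1) and 0.80 (F10). Serpina1d encodes an antitrypsin, Apoc3 an apolipoprotein, Ahsg and Fetub fetuins, Hamp the iron hormone hepcidin and F10 a clotting factor. None of the 10 was called in any comparison.

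Genes that carry the hormone signals known to drive Mup transcription were also read. Of all probes, 3.23%, 0.0734%, 0% and 3.44% were called in the order of the comparisons. Counts near these shares are not results about the genes listed. Of 19 genes of growth hormone signalling and hormone receptors, 0 were called at 24 hrs post-5-day, 24 hrs post-10-day or 1.5 wks, and 1 at 4 wks, Thrb, the thyroid hormone receptor beta, higher in AggE mice by 0.35 (SE 0.09, adjusted p = 0.029, limma) but called in only 1 of 7 background and normalization settings, this one included. At 4 wks 13 of the 19 were lower in AggE mice, with a median of -0.13 against 0.01 over all probes. With processed signals 10 of the 19 were lower, and the median was -0.04 in the liver channel alone and -0.03 without background correction. Without normalization between arrays the median was -0.24, 0 were called higher, and 2, Igf1 (-0.82) and Stat5a (-0.46), were called lower. Of the members short of the threshold, Igfals, whose growth hormone-dependent product carries IGF1 in the blood, had the smallest p and was higher in AggE mice, at 0.94 (adjusted p = 0.079). Cish, a feedback inhibitor induced by STAT5, differed there by -1.89 (SE 0.67, adjusted p = 0.10), Igf1, the growth factor that growth hormone induces in liver, by -0.45 (SE 0.16, adjusted p = 0.10) and Stat5b by -0.43 (SE 0.18, adjusted p = 0.17). Tdo2, a tryptophan-degrading enzyme, was the 1 gene of 10 glucocorticoid targets called in any comparison (Ppp1r3b was called lower at 24 hrs post-5-day in 3 other settings), and fell in AggE mice at 4 wks by 0.90 (SE 0.25, adjusted p = 0.039), though it was called in 2 of 7 settings and differed by -0.16 in the liver channel alone.

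Mups are among the genes that male liver expresses more than female liver, and other such genes were read beside them. At 24 hrs post-5-day 11 of 16 male-biased genes were lower in AggE mice, with a median of -0.33 against 0.00 over all probes, and again 11 of 16 in the liver channel alone (median -0.29), but 8 of 16 with the scanner's processed signals (median 0.067). The arachidonic acid hydroxylase Cyp4a12a was the 1 called, and fell by 1.44 (SE 0.41, adjusted p = 0.043, limma), called in 4 of 7 settings, with 0.36 in its place by the processed signals. Elovl3, a fatty acid elongase, and Hsd3b5, a steroid dehydrogenase, differed by -1.80 (adjusted p = 0.13) and -1.19 (adjusted p = 0.096). Elovl3 was called lower with the deposited ratios (-1.63), without background correction (-2.07) and with an offset of 16 (-2.09).

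At 4 wks, where the Mup ratios were lower, 11 of the 16 male-biased genes were lower in AggE mice as well (median -0.24, 0 called), and 8 of the 9 hepatocyte markers (median -0.27). In the liver channel alone both counts turned over: 12 of the 16 male-biased genes and 8 of the 9 hepatocyte markers were higher in AggE mice, with medians of 0.12 and 0.11. Without normalization between arrays 14 of the 16 and 8 of the 9 were lower, with medians of -0.71 and -0.87, and Apoa1 was the 1 gene of them called lower. The mean log2 ratio of the hepatocyte markers lay between 5.37 and 6.02 in Ctrl and between 4.86 and 5.99 in AggE mice at that time, and its part in the Mup values was not tested. Ass1, a urea cycle enzyme, rose by 1.25 (adjusted p = 0.046, limma) and was the 1 hepatocyte marker called in any comparison by the ratio as normalized here, in 2 of 7 settings. At 24 hrs post-5-day Hpx (0.96) and Ttr (0.89) were called higher in the liver channel alone, and Ttr also with processed signals (1.01). The female-biased Cyp2a4 and Cyp2a5, cytochromes that hydroxylate testosterone and coumarin, fell by 1.26 (adjusted p = 0.022) and 1.04 (adjusted p = 0.037), each called in 2 of 7 settings and differing by as little as -0.45 and -0.20 in other settings. Of the 16 female-biased genes, 9 were higher and 7 lower in AggE mice at that time (median 0.04), while with processed signals 5 were higher and 11 lower.

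At 24 hrs post-5-day, 10 of 16 female-biased genes were lower in AggE mice and 6 higher (median -0.04), though 12 were higher with the processed signals, and 3 rose past the threshold. The cytochromes Cyp2b9 and Cyp2b13 rose by 1.64 (adjusted p = 0.031) and 1.08 (adjusted p = 0.025), and both were higher in AggE mice in all 7 settings though called in 2. Abcd2, a peroxisomal transporter, rose by 0.42 (adjusted p = 0.0066, called in 4 of 7 settings) but was not well above background on all arrays of either group. At 24 hrs post-10-day 11 of the 16 were lower in AggE mice (median -0.06), while Cyp2b13 rose by 1.81 (adjusted p = 5.4e-04), called in 3 of 7 settings with values from 1.06 to 1.83, and no male-biased gene was called. At 1.5 wks 0 genes of any list were called. None of 8 Kupffer cell and leukocyte markers or of 9 endothelial and stellate markers was called in any comparison, and of 10 markers of other tissues Epcam was called at 4 wks (-0.66, adjusted p = 0.024, in 2 of 7 settings), at a level not well above background. At 24 hrs post-10-day the mean log2 ratio of the 8 Kupffer cell and leukocyte markers was 0.31 to 0.59 in Ctrl and 0.71 to 0.81 in AggE mice. Of the 8, 6 were higher and 2 lower in AggE mice (median 0.21), and 5 were well above background on all arrays of a group. The Ctrl and AggE arrays of that time shared no slide, and how many of all probes separate the groups in this way was not counted. Marco, a scavenger receptor of macrophages, differed there by 1.31 (SE 0.43, adjusted p = 1.00, limma). In other settings, at 24 hrs post-5-day, Marco was called higher in 2, and of the endothelial and stellate markers Reln was called lower in 2 and Stab2 higher in 1. Cela1, of the markers of other tissues, was called higher in the liver channel alone (0.35), without background correction (0.90) and with an offset of 16 (0.66). The part of these markers in the Mup values was not tested.

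Other lipocalins included genes that passed the test. The list of 18 with a probe also holds Mup6, which was called in 0 comparisons. Of the 18, 5 rose and 0 fell at 24 hrs post-5-day, while with processed signals, and again with the deposited ratios, 1 was called higher and 1 lower. The one called lower was Lcn12, at -3.39 and -3.48, against -0.37 here. Lcn2, a siderophore-binding protein of the acute phase, rose by 3.47 (SE 0.33, adjusted p = 4.7e-08) and was called in all 7 settings, with values from 2.38 to 6.94. Orm3 and Orm2, which encode acid glycoproteins of the acute phase, rose by 2.30 (adjusted p = 0.0012) and 1.50 (adjusted p = 0.0078), and were called in 4 and 3 of the settings. Ptgds, a prostaglandin synthase, rose by 0.84 (adjusted p = 0.0023, called in 4 settings), and Lcn4 rose by 0.36 (adjusted p = 0.024) from a level not well above background, with the opposite sign in 2 of the 7 settings. At 24 hrs post-10-day Lcn2 rose by 2.90 (adjusted p = 2.5e-06), again called in all 7 settings, and Orm3 by 2.00 (adjusted p = 0.022), called in 2 of the 7 with values from 0.76 to 2.00. In the liver channel alone Orm1 (1.26) and Orm2 (1.41) were called higher at that time too. Orm1 was also called higher at 24 hrs post-5-day in the liver channel alone (1.54) and without background correction (1.22). At 1.5 wks and 4 wks 0 of the 18 were called, though Ambp was called lower at 4 wks without normalization between arrays (-1.27). Whether the change of a lipocalin exceeded that of a Mup was not tested.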

How the data were processed

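Liver RNA (Cy-5) and a common reference RNA (Cy-3) were hybridised together to Agilent 4 x 44k arrays, 1 mouse per array. The deposited intensity values are the scanner output of Agilent Feature Extraction (version 11.5.1.1 in the submitters' processing notes, while the methods of the study name another version), and the authors deposited a table of log10 ratios of the same arrays, which was used only as an alternative. From median spot and background intensities, background was corrected by normexp (offset 50), ratios were normalized by loess within arrays and by quantile between arrays, as log2 ratios of liver to reference, following the background correction, LOWESS and quantile steps of the study's methods. Spots marked as outliers were set to missing, control spots had no weight, spots of a probe were averaged, and 25903 probes of RefSeq transcripts were kept. limma 3.58.1 (R 4.3.3) fitted a mean for each of the 8 groups over all 39 arrays, with Benjamini-Hochberg adjustment over all probes, and the fit was tested on simulated data. A gene of a list was read from its brightest probe. The number of arrays limits the precision. The fit had no slide term and arrays of a slide were correlated (0.32 by duplicateCorrelation), so p-values leave this correlation out and can be too small, above all at both 24-hr times, where Ctrl and AggE mice shared no slide. Values of list genes were named where called in any comparison, and otherwise for up to 4 with the largest change among those well above background. Igfals, Cish, Igf1, Stat5b, Elovl3, Hsd3b5 and Marco, and genes named as called under another setting alone, fall outside that rule and were named after their values were seen. The members and lists were chosen with earlier results of these data known. The alternatives were other background and normalization settings, the liver channel alone, the deposited ratios, a filter on dim probes, array weights, slide, scan day and replicate number as blocks, and leaving out each array.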

Additional observations from a re-analysis of the deposited data

How the results depend on the processing

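No member was called in any comparison, and of 376 alternative values of the 16 member results, 317 kept direction and side of the threshold, 1 was exactly 0 (Mup1 at 4 wks with Cy-5 alone), 54 changed sign and 4 (all Mup5 at 4 wks) passed it. Mup5 at 4 wks was -1.57 without normalization between arrays, and the same with Aquantile, which leaves the ratios as they are. Leaving out 1 array gave -1.01 to -0.64 for it. Values that changed sign at 24 hrs post-5-day were, for Mup1, -0.30 with processed signals, -0.15 with an offset of 16, -0.51 without normalization between arrays or with Aquantile, -0.53 with Cy-5 alone, -0.45 with the deposited ratios and -0.12 with slide as a random block. For Mup3 they were -0.20, -0.70 (both), -0.19, -0.56 and -0.10 under the same settings apart from the offset. For Mup4 they were -0.26 with processed signals, -0.0067 with Cy-5 alone, -0.065 with the deposited ratios and -0.088 with the random block, and for Mup5 0.11 without background correction and 0.74 with processed signals. At 24 hrs post-10-day they were 0.028 for Mup3 with the random block, -0.23 for Mup4 with Cy-5 alone and 0.036 for Mup5 with processed signals. At 1.5 wks they were, for Mup3, -0.22 without background correction, -0.79 with processed signals, -0.23 with the offset, -0.024 without normalization between arrays or with Aquantile and -0.72 with the deposited ratios, 0.27 for Mup4 with Cy-5 alone, and, with slide as a fixed block, 0.10 for Mup4 and 0.21 for Mup5. At 4 wks they were 0.23 and 0.12 for Mup1 and Mup4 without background correction, 0.29 and 0.077 with processed signals, 0.17 for Mup4 with the random block, and 0.11 and 0.73 for Mup3 and Mup4 with the fixed slide block. The Mup5 difference between 24 hrs and 4 wks post-10-day was -0.43 with Cy-5 alone. The cause of these changes was not tested. Leaving out each array gave -0.14 to 0.26, -0.13 to 0.39 and -0.12 to 0.35 for Mup1, Mup3 and Mup4 at 24 hrs post-5-day, -0.39 to 0.068 and -0.35 to 0.025 for Mup3 and Mup5 at 24 hrs post-10-day, and -0.34 to 0.083 for Mup4 at 4 wks. The sign turned without Ctrl mouse 1 or AggE mouse 2, 3 or 4 for Mup1, without Ctrl mouse 1 or AggE mouse 3 or 4 for Mup3 and without Ctrl mouse 3 or AggE mouse 3 for Mup4 at 24 hrs post-5-day, without Ctrl mouse 4 or AggE mouse 2 or 3 for Mup3 and AggE mouse 3 for Mup5 at 24 hrs post-10-day, and without Ctrl mouse 3 or 6 or AggE mouse 3 for Mup4 at 4 wks. Without changing sign, it gave -0.54 to -0.15 for Mup5 at 24 hrs post-5-day, and -0.76 to -0.083 for Mup1 and 0.029 to 0.56 for Mup4 at 24 hrs post-10-day. At 1.5 wks it gave -0.39 to -0.22 for Mup1, 0.028 to 0.23 for Mup3, -0.89 to -0.38 for Mup4 and -0.30 to -0.082 for Mup5. At 4 wks it gave -0.44 to -0.21 for Mup1 and -0.53 to -0.31 for Mup3.

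Keeping the spots marked as outliers and blocking on the scan day at 1.5 wks, both chosen after seeing the data, called no member. The replicate numbers only name mice: over 18 pairs of the same number, deviations from group means correlated from -0.45 to 0.50. With the replicate block, Mup5 at 4 wks stayed at -0.85 (adjusted p = 0.25), no member was called, and the probes called went from 836, 19, 0 and 892 to 96, 13, 0 and 0 in the order of the report. Over all alternatives these counts ran from 10 to 1990, 6 to 79, 0 to 42 and 0 to 2487. Each member had 1 probe, so averaging over probes of a gene could give no other value.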

Other observations

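Mup6 lies outside the listed genes, and its reference spot (Cy-3) was well above background on 10 of 39 arrays, none of them at 24 hrs post-5-day or 1.5 wks, so that ratios rest on a reference signal near background on the others. At 24 hrs post-5-day its log2 ratio was 2.23 to 3.49 in Ctrl and 1.45 to 3.63 in AggE mice, and at 24 hrs post-10-day it was 6.15 to 7.24 and 3.53 to 8.33. At 4 wks it was 7.34 to 8.46 in Ctrl and 5.58 to 8.33 in AggE mice. The 3.53 at 24 hrs post-10-day was that of AggE mouse 5, alone on slide 3, while the other AggE mice, on slide 2, had 7.01 to 8.33. At 1.5 wks post-5-day the mice fell into separate levels: Ctrl mice 1 to 3 had 0.66, 0.84 and 0.67 and Ctrl mouse 4, whose title carries a 10, had 7.83, while AggE mice 1, 3, 4 and 5 had 0.82, 1.44, 1.64 and 0.99 and AggE mouse 2 had 6.48. Both high arrays of that time were scanned on the second day, together with all arrays of 4 wks, and lay on slides that also held 4-wk arrays. Over all 39 arrays the split ran by slide: every array on slides 3 to 7 had 3.63 or less, and every array on slides 1, 2 and 8 to 11 had 5.58 or more. As scanned, the Cy-5 intensity of the spot ranged from 33 to 19099. By limma, 0 of the 4 AggE minus Ctrl differences of Mup6 were called, and 0 had an unadjusted p of 0.05 or less. Whether the split comes from the slides, the scan, the labels or the mice was not tested.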
